A study of Mus musculus with 8 samples.

Results

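Creb3 and Atf6 factors are transcription factors that are made as proteins of the endoplasmic reticulum membrane. The set described here holds 9 genes: the 5 Creb3 factors Creb3, Creb3l1, Creb3l2, Creb3l3 and Creb3l4, the related factors Atf6 and Atf6b, and Mbtps1 and Mbtps2, the proteases that release them. They were taken by name from the 17097 genes that the array annotation names singly. Where a gene had several probe sets, the one that stood for it was chosen by its mean level over the 8 arrays, the highest being taken, and the rule used no other measured value. The set was put together with the falls of Creb3l3 and Creb3l1 in these arrays already known, so those falls are a description and their p-values support nothing about the choice of the family.

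The samples were dermal fibroblasts of 4 old mice, 18 months of age, and of 4 young mice, 2 months of age, with 1 array per animal. Per the labels, all cells came from collagenase-digested skin without its subdermis and were sorted for Pdgfra and CD34 and against CD45, CD117, CD24, CD31 and EpCam. Both ages thus share the same gate, and the labels used here give neither strain nor sex nor treatment. The labels mention no culture. Cd34 lay at 11.68 in old and 11.73 in young cells and Pdgfra at 8.52 in old and 8.36 in young cells. Both belong to a list of 10 dermal fibroblast markers, of which 2 were lower in old cells, 0 were higher and 8 did not pass. Lower by limma were Col3a1 (-0.28, adjusted p = 0.00765) and Twist2 (-0.33, adjusted p = 0.0179). The median difference of the list was -0.13. Over all genes 7.66% were called lower and 9.87% higher, for this list and those below. Of the 5 genes of the negative gate 3, Ptprc (CD45), Kit (CD117) and Epcam, lay in both ages at the level of receptor genes of smell that skin cells are not known to use. Pecam1 (CD31) averaged 5.43 in old and 5.07 in young cells, and Cd24a 6.60 in old and 7.27 in young cells, above that level in at least 1 age. The receptor level, the 95th percentile over 78 olfactory and vomeronasal receptor genes, was 5.12. Of other cell types' markers, 6 of 10 for macrophages and dendritic cells, 6 of 10 for endothelium, 6 of 8 for melanocytes and Schwann cells, 4 of 7 for adipocytes and 3 of 8 for smooth muscle and pericytes lay at or under it in both ages. Of the markers of these 5 lists, 5 were higher in old cells by limma, Fabp4 of adipocytes (3.02, adjusted p = 0.00701), Tek (1.73, adjusted p = 0.00111) and Tie1 (0.35, adjusted p = 0.0379) of endothelium, Lyz2 of macrophages (1.08, adjusted p = 0.00155) and Kcnj8 of pericytes (0.64, adjusted p = 0.0429). The 3 lower ones by limma were Csf1r of macrophages (-1.92, adjusted p = 5.9e-06), Mlana of melanocytes (-0.57, adjusted p = 0.0324) and Egfl7 of endothelium (-0.31, adjusted p = 0.0333). Tie1 (4.38 in old, 4.03 in young cells) and Mlana (4.33 in old, 4.89 in young cells) lay under the receptor level in both ages. Their calls are thus no sure measure of a change. The mean level of the list ranged over 5.03 to 5.42 in old and 4.63 to 5.05 in young arrays for adipocytes, and over 6.00 to 6.35 in old and 5.65 to 5.81 in young arrays for smooth muscle and pericytes. Of the 5 lists, the mean level of smooth muscle and pericytes alone did not overlap between the ages. Keratinocyte markers were brighter, and 0 of the 9 measured lay at or under the receptor level in both ages. By limma Krt14 (1.65, adjusted p = 0.00469) and Krt5 (1.04, adjusted p = 0.0379) were higher in old cells. Trp63 was lower (-0.41, limma adjusted p = 0.0237), and 6 did not pass. The part of all these cell types, keratinocytes included, in the results on the 9 genes was not tested.

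In an unstressed cell these factors sit in the membrane of the endoplasmic reticulum with their DNA-binding part towards the cytosol. On stress of the reticulum, or on other signals of secretory load, they travel to the Golgi, where the site-1 protease (Mbtps1) cuts them in the lumen and the site-2 protease (Mbtps2) cuts them within the membrane. The freed part enters the nucleus and binds genes of chaperones, secretory transport and, for some members, of matrix and lipid metabolism. Skin fibroblasts secrete much collagen. These steps act on the protein, and the arrays measured transcripts alone.

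The promoters of 3 genes that fell are shown because the family is known to bind short elements with a CCACG or TGACGTG core. RefSeq promoter windows of build GRCm38.p6 were at hand for 7 of the 9 genes, and no window was found for Creb3l1 and Atf6. Each line gives the 250 bases before a transcript start, 5′ to 3′ on the gene's strand, with every CCACG and every CCAAT, on either strand, in capitals. The first Creb3l3 window is chr10:81092592-81092841, the second is chr10:81098873-81099122, both on the minus strand. The Creb3 window is chr4:43562408-43562657 and the Atf6b window is chr17:34646896-34647145, both on the plus strand.
Creb3l3, first window: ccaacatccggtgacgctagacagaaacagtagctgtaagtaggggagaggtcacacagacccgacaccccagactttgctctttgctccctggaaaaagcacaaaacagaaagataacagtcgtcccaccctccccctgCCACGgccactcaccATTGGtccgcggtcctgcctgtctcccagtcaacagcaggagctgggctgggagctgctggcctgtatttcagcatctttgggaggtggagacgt
Creb3l3, second window: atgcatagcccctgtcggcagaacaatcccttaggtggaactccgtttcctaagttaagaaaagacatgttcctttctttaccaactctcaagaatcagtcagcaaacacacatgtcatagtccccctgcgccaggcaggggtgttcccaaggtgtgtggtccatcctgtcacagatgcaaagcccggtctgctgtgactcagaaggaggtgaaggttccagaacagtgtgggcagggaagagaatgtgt
Creb3: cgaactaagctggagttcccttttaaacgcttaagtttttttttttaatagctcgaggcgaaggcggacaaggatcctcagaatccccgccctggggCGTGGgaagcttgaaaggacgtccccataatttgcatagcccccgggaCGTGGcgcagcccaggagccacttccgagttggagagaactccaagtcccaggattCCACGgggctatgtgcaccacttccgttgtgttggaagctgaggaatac
Atf6b: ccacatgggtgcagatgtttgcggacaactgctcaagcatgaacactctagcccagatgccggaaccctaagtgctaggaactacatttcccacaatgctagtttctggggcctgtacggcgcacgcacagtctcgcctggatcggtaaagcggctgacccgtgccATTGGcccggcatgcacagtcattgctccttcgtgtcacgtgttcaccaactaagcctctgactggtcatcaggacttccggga
Within the 300 bases of each window, which run 50 bases past the start, 4 longer elements were searched on both strands: TGACGTCA (the CRE), TGACGTG (the core of the UPRE), CCAAT followed after 9 bases by CCACG (the ERSE), and ATTGG followed after 1 base by CCACG (the ERSE-II). None of the 10 windows of the 7 genes held any of them. Among all 32851 windows they stood in 1.79%, 2.01%, 0.119% and 0.0365%. The short CCACG stood in 32.8% of all windows and CCAAT in 37.4%. The Creb3 window held CCACG at 3 places, its first base -153, -105 and -49 bases from the start, and the first Creb3l3 window held CCACG at -110 beside a reversed CCAAT at -95. A further reversed CCACG of that window starts at -3 and runs past the start, so it is not in capitals. The second Creb3l3 window held neither. A match is a description of letters, and these windows were not measured by the arrays.

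Values are normalised log2 levels, in which 1 unit is a doubling of the array signal, and differences are old minus young. Of the 9 genes, 4 fell in old fibroblasts (Creb3l3, Creb3l1, Creb3 and Atf6b), Mbtps2 rose, and 4 did not pass the threshold of 0.05 (limma, adjusted by Benjamini-Hochberg over all 17097 genes). Over all genes 7.66% were called lower and 9.87% higher, 17.5% in either direction. The median difference was -0.22 over the 9 genes and 0.01 over all genes. The old and young values did not overlap for 7 of the 9 genes, against 21.3% of all genes. The old values all lay below the young ones for 5 of them, against 9.66% of all genes, and all above for Atf6 and Mbtps2, against 11.7% of all genes. The calls over the whole array were 1688 upward and 1310 downward in old cells, and 1415 upward and 1716 downward after a further quantile normalization, so that the balance of directions over all genes depends on scaling. The 5 calls among the 9 genes had the same direction under both scalings. An index of non-specific signal, the mean of 7 array probe sets that match no transcript and are rich in G and C, also differed with age, at 6.00 in old and 6.63 in young cells (difference -0.63). It ranged over 5.68 to 6.38 in old and 6.53 to 6.81 in young arrays. With that index as a covariate the calls of Creb3, Atf6b and Mbtps2 were lost, as given beside each. Because the index follows age closely, the covariate widened the standard errors, and a lost call need not mean a smaller difference. The differences of Creb3 (-0.59) and Mbtps2 (0.61) were larger in size with it, and that of Atf6b (-0.27) was smaller. Since whole sorted populations were measured, fewer cells with a transcript and less transcript per cell cannot be told apart.

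**Figure D1:**
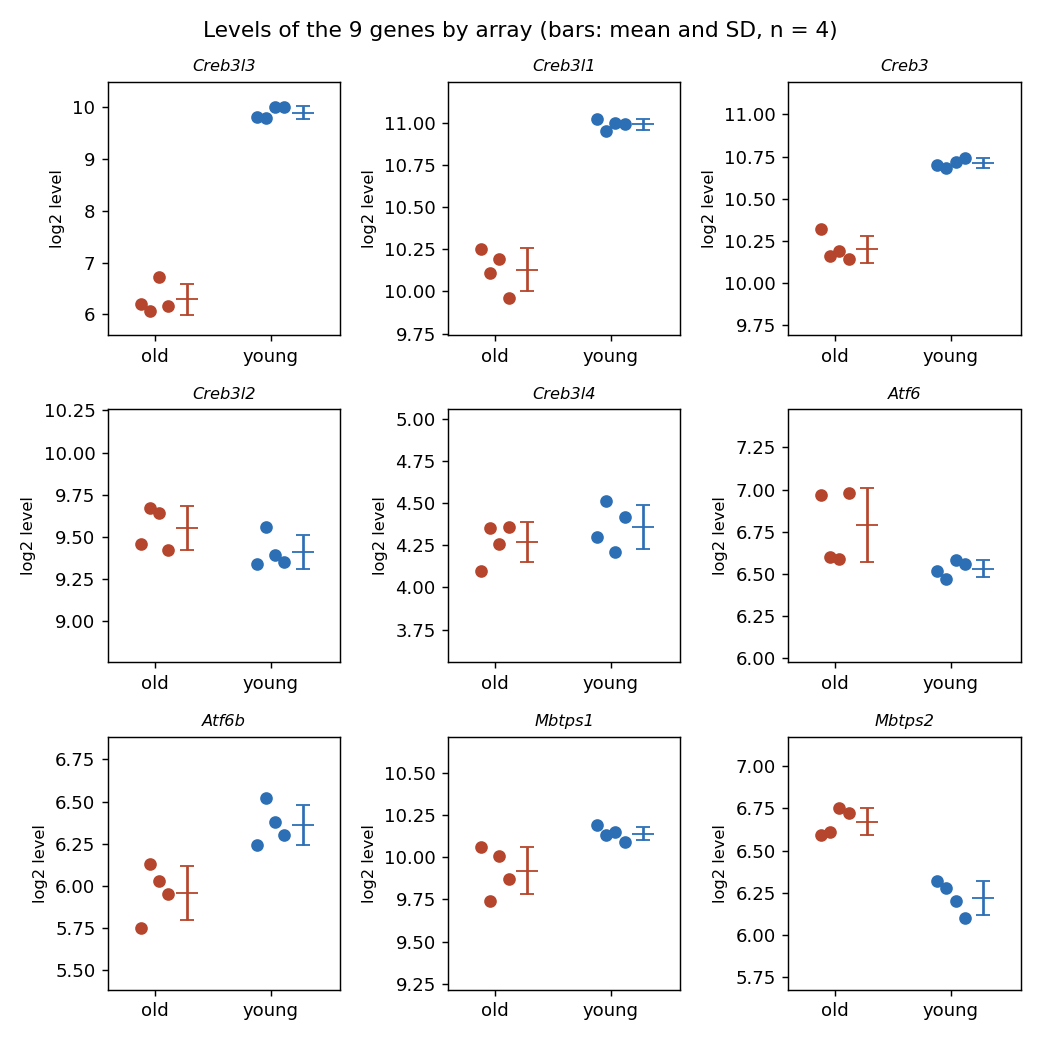
Log2 level (vertical axes, each with its own range) of the 9 genes in every array, 4 old (red) and 4 young (blue), with the mean and SD beside the points. Old and young points are separate for 7 genes, with a gap of only 0.01 for Atf6 and 0.03 for Mbtps1, and overlap for Creb3l2 and Creb3l4.

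Creb3l3 had the largest difference of the set. It encodes a factor known mainly from liver and small intestine, where its nuclear form turns on genes of fatty acid use, of triglyceride clearance and of the acute phase. Its level was 6.20, 6.07, 6.73 and 6.16 in old replicates 1 to 4, against 9.80, 9.79, 10.00 and 9.99 in young replicates 1 to 4. The highest old value lay 3.06 below the lowest young value. The means were 6.29 ± 0.30 in old and 9.89 ± 0.12 in young cells (SD, n = 4 each). The difference of -3.60 ± 0.13 (SE, 95% interval -3.91 to -3.30) is a 12.2-fold lower signal, 8.22% of that in young cells. It was the third lowest of 17097 differences (limma adjusted p = 6.0e-07). The old level stayed above the receptor level of 5.12, but it was near the non-specific index of old cells, at 6.00. Old replicate 3 was the highest of the old arrays for Creb3l3, and it also had the highest non-specific index among them, at 6.38 against 5.68 to 5.99 in the other old arrays. Without that array the difference was -3.75, and with the index as a covariate it was -3.20 (limma adjusted p = 7.2e-04). The gene has 1 probe set on the array, so no other probe set bears on its value.

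Of 12 hepatocyte and enterocyte markers, 8 lay at the receptor level in both ages. Albumin, Alb, was among these and averaged 4.17 in old and 4.18 in young cells. The brightest of the list, Apoa2, averaged 6.48 in old and 6.49 in young cells, above the receptor level of 5.12. Apoa1 averaged 5.47 in old and 5.42 in young cells, also above it. Vil1 averaged 5.57 in old and 5.04 in young cells, and its difference of 0.53 did not pass (limma adjusted p = 0.108). Ttr, a hepatocyte carrier of thyroid hormone, was the 1 marker that passed, against 17.5% of all genes. It differed by -0.26 (limma adjusted p = 0.0285) at means of 5.09 in old and 5.35 in young cells. The mean level of the 12 ranged over 4.48 to 4.62 in old and 4.44 to 4.50 in young arrays.

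Genes that Creb3l3 is known to drive in liver and intestine lay mostly at background. Of 14 measured, 12 were at the receptor level in both ages and their median difference was 0.03. Of the 14, 1 was called lower, against 7.66% of all genes. The 1 was Fgf21, a hormone of fasting, at 4.47 ± 0.07 in old and 4.74 ± 0.09 in young cells (SD, n = 4 each), a difference of -0.27 ± 0.07 (SE, limma adjusted p = 0.0221) at the receptor level. It was lost without old replicate 2 (limma adjusted p = 0.0613) and without young replicate 1 (limma adjusted p = 0.0502), and with the non-specific index as a covariate Fgf21 differed by -0.16 (limma adjusted p = 0.717). Cpt1a, which carries fatty acids into mitochondria and was named after its value was seen, was above that level at 9.06 in old and 8.71 in young cells and differed by 0.34 (limma adjusted p = 0.295).

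Creb3l1, also called Oasis, is known in mouse bone as a driver of type I collagen, and its loss in people causes brittle bones. Its level was 10.25, 10.11, 10.19 and 9.96 in old replicates 1 to 4, against 11.02, 10.95, 11.00 and 10.99 in young replicates 1 to 4. The old values spread more than the young, with an SD of 0.13 in old and 0.03 in young cells (n = 4 each), and lay at least 0.70 below them. Creb3l1 thus had 55% of the young signal, a difference of -0.86 ± 0.07 (SE, 95% interval -1.02 to -0.70, limma adjusted p = 6.9e-05). The call was kept under all 18 alternatives run, among them the non-specific index as a covariate (-0.85, limma adjusted p = 0.036).

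Creb3l2, the closest relative of Creb3l1 and known in mouse cartilage for turning on Sec23a, was not called. Its level was 9.46, 9.67, 9.64 and 9.42 in old replicates 1 to 4, against 9.34, 9.56, 9.39 and 9.35 in young replicates 1 to 4. The groups overlapped, and the difference of 0.14 ± 0.08 (SE, 95% interval -0.04 to 0.32) did not pass (limma adjusted p = 0.296). A second, dimmer probe set of the gene read 8.40, 8.65, 8.67 and 8.58 in old replicates 1 to 4 and 8.29, 8.27, 8.27 and 8.21 in young replicates 1 to 4, with no overlap. That probe set rose by 0.31 ± 0.07 (SE, limma adjusted p = 0.0172 over all 45141 probe sets). Both probe sets of Creb3l2 thus lay on the other side of zero from Creb3l1, and a test of the difference between both genes was not run.

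Creb3, also called Luman, is a broadly made factor that is known to act on Golgi stress. It read 10.32, 10.16, 10.19 and 10.14 in old replicates 1 to 4, against 10.70, 10.68, 10.72 and 10.74 in young replicates 1 to 4. All old values were below all young values, with a difference of -0.51 ± 0.06 (SE, 95% interval -0.64 to -0.37, 70.3% of the young signal, limma adjusted p = 5.1e-04). The second probe set fell alike, by 0.58 on the log2 scale, with means of 9.60 in old and 10.18 in young cells (limma adjusted p = 0.00507 over all probe sets). With the non-specific index as a covariate the difference of Creb3 was -0.59 and no longer passed (limma adjusted p = 0.06).

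Creb3l4, a family member known from prostate and testis, lay at the receptor level in both ages, at 4.27 ± 0.12 in old and 4.36 ± 0.13 in young cells (SD, n = 4 each). Its difference of -0.09 had a 95% interval of -0.28 to 0.10 (limma adjusted p = 0.533). At such a level the array gives no measure of a change.

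Atf6 and Atf6b, the paired factors of the unfolded protein response, lay on opposite sides of zero. Atf6, the main activator of chaperone genes, read 6.97, 6.60, 6.59 and 6.98 in old replicates 1 to 4, against 6.52, 6.47, 6.58 and 6.56 in young replicates 1 to 4. Old replicates 1 and 4 were high while old replicates 2 and 3 lay just above the young arrays, by 0.01 at the nearest. The difference of 0.25 ± 0.10 (SE, 95% interval 0.03 to 0.48) did not pass (limma adjusted p = 0.123). The means of Atf6 were 6.79 in old and 6.53 in young cells, against a non-specific index of 6.00 in old and 6.63 in young cells. The dimmer Atf6 probe set differed by 0.29 (limma adjusted p = 0.059 over all probe sets). The mean of both probe sets passed, at 0.27 (limma adjusted p = 0.0459), whereas with the non-specific index as a covariate the difference was -0.05 (limma adjusted p = 0.96).

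Atf6b, a weaker activator that in mammalian cells can dampen Atf6, read 5.75, 6.13, 6.03 and 5.95 in old replicates 1 to 4, against 6.24, 6.52, 6.38 and 6.30 in young replicates 1 to 4. The highest old value lay 0.11 below the lowest young value. Atf6b fell by 0.40 on the log2 scale (SE 0.09, 95% interval -0.60 to -0.19, limma adjusted p = 0.0167), to 76% of the young signal. Its means of 5.96 in old and 6.36 in young cells were above the receptor level. They were no higher than the non-specific index, at 6.00 in old and 6.63 in young cells. With the non-specific index as a covariate the difference was -0.27 and did not pass (limma adjusted p = 0.632).

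The 2 proteases also lay on opposite sides of zero. Mbtps1, the site-1 protease, read 10.06, 9.74, 10.01 and 9.87 in old replicates 1 to 4, against 10.19, 10.13, 10.15 and 10.09 in young replicates 1 to 4. The groups were 0.03 apart, and the difference of -0.22 ± 0.08 (SE, 95% interval -0.39 to -0.05) did not pass (limma adjusted p = 0.082). It passed after a further quantile normalization (-0.26, limma adjusted p = 0.0441) and without old replicate 1 (-0.27, limma adjusted p = 0.0413). The other Mbtps1 probe sets differed by -0.11 and -0.10 and did not pass (limma adjusted p = 0.51 and 0.393 over all probe sets).

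Mbtps2, the site-2 protease, an X-linked gene whose faults in people cause scaling skin and hair loss, read 6.59, 6.61, 6.75 and 6.72 in old replicates 1 to 4, against 6.32, 6.28, 6.20 and 6.10 in young replicates 1 to 4. All old values were above all young values. Mbtps2 rose by 0.44 ± 0.07 (SE, 95% interval 0.29 to 0.60, 1.36-fold, limma adjusted p = 0.00233). Its means were 6.67 in old and 6.22 in young cells. The non-specific index lay at 6.00 in old and 6.63 in young cells, so the young mean was below it. The second Mbtps2 probe set averaged 4.76 in old and 4.41 in young cells, at the receptor level, and its groups overlapped (0.35, limma adjusted p = 0.141 over all probe sets). With the non-specific index as a covariate the difference was 0.61 (limma adjusted p = 0.0696). Some keratinocyte markers differed with age as well. Of 9 measured, Krt14 (1.65) and Krt5 (1.04) rose and Trp63 (-0.41) fell. Their mean level ranged over 7.94 to 9.18 in old and 7.38 to 8.58 in young arrays, with none at the receptor level in both ages. Their part in the result on Mbtps2, as on the other genes of the set, was not tested.

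**Figure D2:**
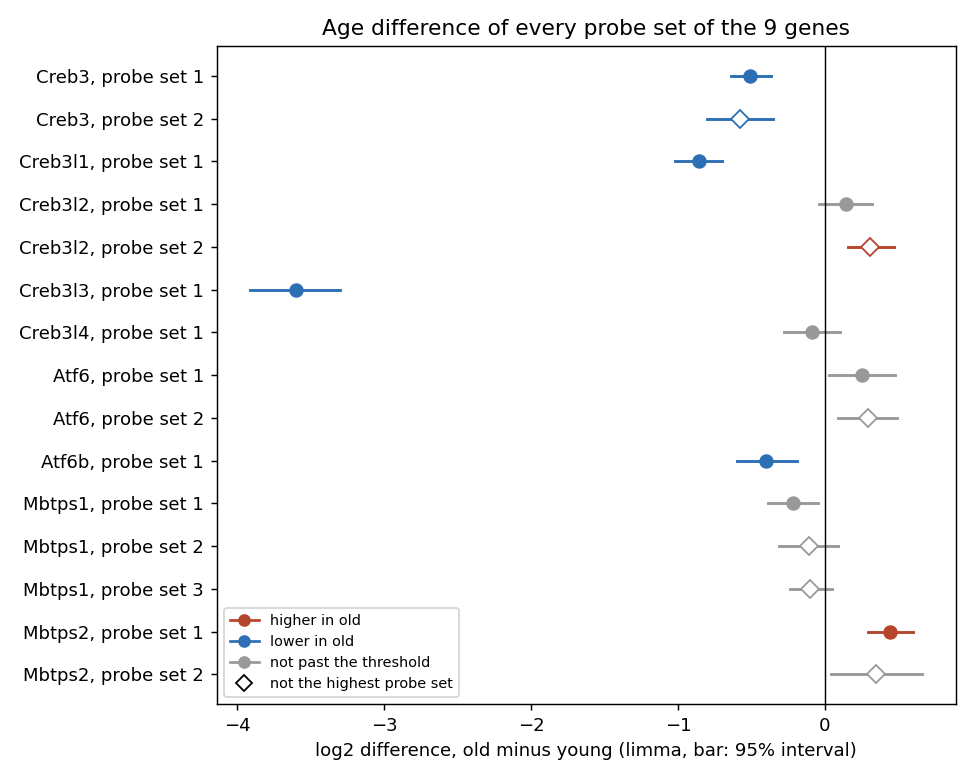
Log2 difference, old minus young, with its 95% limma interval (horizontal axis) for all 15 probe sets of the 9 genes, coloured by call over all 45141 probe sets. Creb3l3 lies at -3.60, every other probe set between -0.86 and 0.44, and 5 probe sets are called lower and 2 higher.

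Calls were also made over all probe sets. Of the 15 probe sets of the 9 genes, 5 were lower, 2 were higher and the rest did not pass, against 13.1% of all 45141 probe sets called in either direction. The 5 genes with several probe sets, Creb3, Creb3l2, Atf6, Mbtps1 and Mbtps2, had the same sign in all of them.

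Genes of the secretory carriers, which bud from the endoplasmic reticulum or return proteins to it, were described next because Creb3l1 and Creb3l2 are known to act on several of them. Of 12 measured genes of carriers and type I collagen, 9 fell and 3 did not pass, against 7.66% of all genes called lower. Their median difference was -0.50, against 0.01 over all genes. The list was chosen with earlier results of these data known, so its count is a description and supports nothing about Creb3l1. Kdelr3, a receptor that returns chaperones from the Golgi, fell by 1.15 on the log2 scale (limma adjusted p = 2.6e-05). Sec24a, a cargo adaptor of the outbound coat, fell by 0.68, Tram2, a translocon protein tied to collagen synthesis, fell by 0.63, and Sec31a, of the outer coat, fell by 0.54. Sec23a, the coat gene known as a Creb3l2 target in cartilage, averaged 9.54 ± 0.12 in old and 10.04 ± 0.02 in young cells (SD, n = 4 each), a difference of -0.50 (limma adjusted p = 0.00103), and was named after its value was seen. The collagen Col1a1, a Creb3l1 target in mouse bone, differed by -0.19 (limma adjusted p = 0.0652) and Col1a2 by -0.56 (limma adjusted p = 0.0772). With the non-specific index as a covariate 1 of these genes, Kdelr3, was called lower, against 9 without it, and 9 were lower at an unadjusted p under 0.05. In that fit the differences were -1.17 for Kdelr3, -0.86 for Sec24a and -0.67 for Sec31a, each at least as large as without the covariate, and -0.56 for Tram2 and -0.34 for Sec23a, which were smaller.

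Targets of Atf6 followed. Of 18 measured, 2 fell and 16 did not pass, against 7.66% of all genes called lower, and the median difference was -0.13. Herpud1, of protein clearance from the reticulum, fell by 0.42 and Edem1, which marks misfolded glycoproteins, fell by 0.41 on the log2 scale (limma adjusted p = 0.0189 and 0.0086). The call of Herpud1 was lost without young replicate 3 (limma adjusted p = 0.0568) or young replicate 4 (limma adjusted p = 0.0517), and that of Edem1 with the mean over its probe sets (-0.21, limma adjusted p = 0.14). The count was 5 with array weights, 4 after a further quantile normalization or without old replicate 1, 1 with the mean over probe sets or without young replicate 3 or 4, and 0 by limma with the non-specific index as a covariate (4 at an unadjusted p under 0.05), where Herpud1 differed by -0.18 and Edem1 by -0.53. Hspa5, the chaperone that holds Atf6 in the reticulum, was named after its value was seen and averaged 11.93 ± 0.13 in old and 11.87 ± 0.05 in young cells (SD, n = 4 each, difference 0.06, limma adjusted p = 0.671).

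Of 5 measured partners of Atf6 in the reticulum, 2 fell, against 7.66% of all genes called lower. Pdia5, a disulfide isomerase known to prepare Atf6 for export, averaged 6.23 ± 0.21 in old and 7.52 ± 0.22 in young cells (SD, n = 4 each). It fell by 1.28 on the log2 scale (limma adjusted p = 2.0e-04), and with the non-specific index as a covariate differed by -1.29 (limma adjusted p = 0.0632). Txndc12, a redox enzyme that binds Atf6, fell by 0.25 (limma adjusted p = 0.0377) and lost that call for 6 of the 8 arrays when each was left out alone (limma adjusted p up to 0.102), and with the replicate block (limma adjusted p = 0.0557). The index as a covariate left 0 of the 5 called by limma (1 at an unadjusted p under 0.05). The other 3 measured partners did not pass, and the median of the 5 was -0.25.

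The other stress sensors of the reticulum and their first targets were measured too. Of 9 genes, 1 fell and 8 did not pass, against 7.66% of all genes called lower, with a median of 0.08. The 1 was Eif2ak3, the kinase Perk that slows translation, which fell by 0.35 on the log2 scale (limma adjusted p = 0.0237). Its call was lost without old replicate 2 or 3 or young replicate 1 or 3 (limma adjusted p up to 0.0636) and with the non-specific index as a covariate (-0.35, limma adjusted p = 0.471). The count was 2 with array weights or without old replicate 1. Among 11 soluble CREB and ATF relatives, which carry no membrane anchor, Atf2 rose by 0.55 (limma adjusted p = 0.00298) and Atf5 fell by 0.43 (limma adjusted p = 0.00894), and the other 9 did not pass (median 0.07). Over all genes 17.5% were called in either direction. In the fit with the non-specific index Atf2 kept its difference of 0.55 and Atf5 its difference of -0.43, and neither passed (limma adjusted p = 0.235 and 0.351). The count of lower relatives was 2 with the replicate block, with array weights or without young replicate 1, and that of higher ones was 2 with the most variable probe set. None of 4 other membrane-tethered factors measured passed by limma, and 0 had an unadjusted p under 0.05. Nfe2l1, the proteasome regulator, differed by 0.07 (limma adjusted p = 0.683) and Myrfl, at the receptor level in both ages, by -0.12 (limma adjusted p = 0.319).

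Other clients and handlers of the 2 proteases were higher where they passed. Of 7 measured, 3 rose and 4 did not pass, against 9.87% of all genes called higher, with a median of 0.14. Insig2, which keeps sterol regulators in the reticulum, rose by 0.39 (limma adjusted p = 0.0192), and Scap, which escorts them to the Golgi, rose by 0.38 (limma adjusted p = 0.00799). Gnptab, a lysosomal sorting enzyme that the site-1 protease cuts, rose by 0.31 (limma adjusted p = 0.00648). The call of Insig2 was lost without old replicate 4 or young replicate 3 or 4 (limma adjusted p up to 0.0546), and that of Gnptab with the mean over its probe sets (0.10, limma adjusted p = 0.262). When the index was a covariate 0 of the 7 were called by limma, and 2 were higher at an unadjusted p under 0.05. The differences were then 0.40 for Scap (SE 0.15, against 0.08 without the covariate), 0.43 for Gnptab and 0.27 for Insig2.

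**Figure D3:**
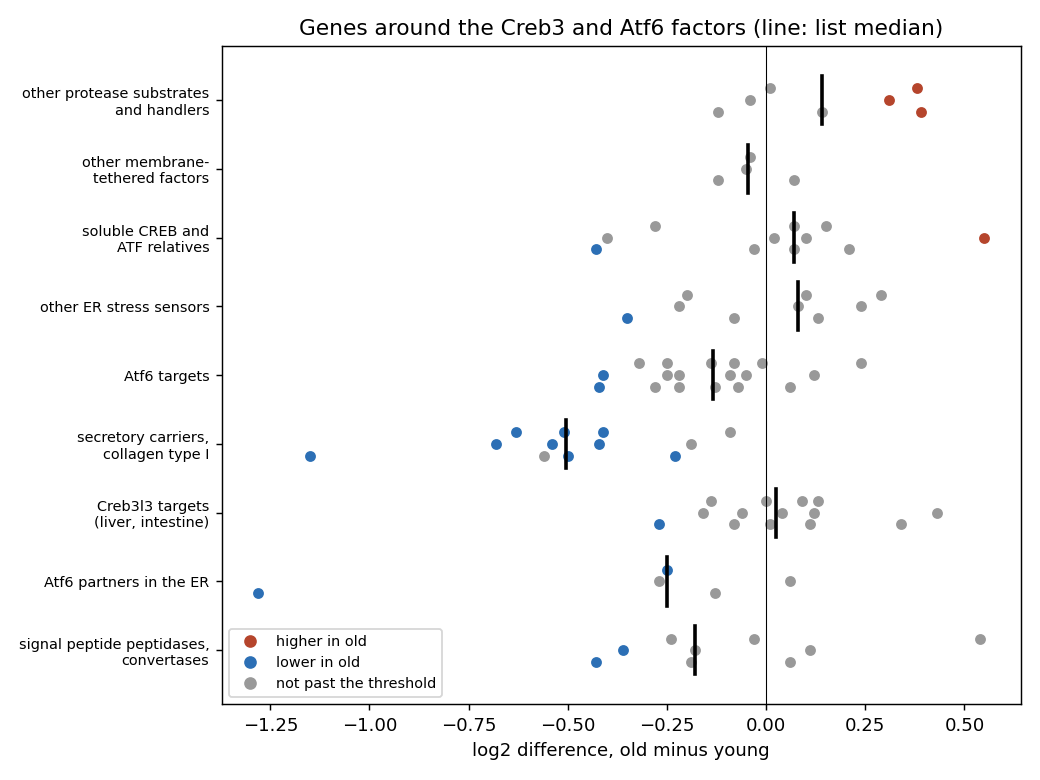
Log2 difference, old minus young (horizontal axis), of single genes in 9 lists around the Creb3 and Atf6 factors, coloured by limma call, with each list's median as a black line. The median is -0.50 for secretory carriers and type I collagen and between -0.25 and 0.14 for the other 8 lists.

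The genes next to each of the 9 on the chromosome were set beside them, from the order of genes in RefSeq. Of 31 measured neighbours, 8 were lower, 1 was higher and 22 did not pass, against 7.66% lower and 9.87% higher over all genes. Creb3l3 lies between Thop1, a peptidase, and Map2k2, a kinase of the growth factor route. Thop1 averaged 6.36 in old and 6.38 in young cells (-0.02, limma adjusted p = 0.933), the next gene, Sgta, differed by -0.07 (limma adjusted p = 0.505), Map2k2 by -0.30 (limma adjusted p = 0.0407) and Zbtb7a by -0.31 (limma adjusted p = 0.0152). In the fit with the non-specific index Zbtb7a differed by -0.13 and Map2k2 by -0.45, and neither passed (limma adjusted p = 0.776 and 0.275). With the specimen number as a block Map2k2 did not pass (-0.30, limma adjusted p = 0.0543), and it no longer passed for 7 of the 8 arrays when each was left out alone (limma adjusted p up to 0.105). Next to Creb3l1, Dgkz differed by 0.26 and Phf21a by 0.07 without passing (limma adjusted p = 0.206 and 0.601), while Mdk, a heparin-binding growth factor, fell by 0.73 (limma adjusted p = 0.00104). The gene near Atf6b that rose was the complement gene C4b (0.94, limma adjusted p = 0.00389). With the index as a covariate Mdk differed by -0.50 and C4b by 1.04, and neither passed (limma adjusted p = 0.276 and 0.212). The remaining lower neighbours were Olfml2b and Dusp12 by Atf6 (-0.42 each), Rgp1 by Creb3 (-0.42), Jtb by Creb3l4 (-0.29) and Phex by Mbtps2 (-0.32). Phex lay under the receptor level in both ages. None of them passed in the fit with the index (limma adjusted p from 0.17 to 0.916). The old and young values of Rgp1 overlapped. Its call was lost without old replicate 1, 2 or 4 or young replicate 2, 3 or 4 (limma adjusted p up to 0.111). It was also lost when every probe set was tested (limma adjusted p = 0.054).

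**Figure D4:**
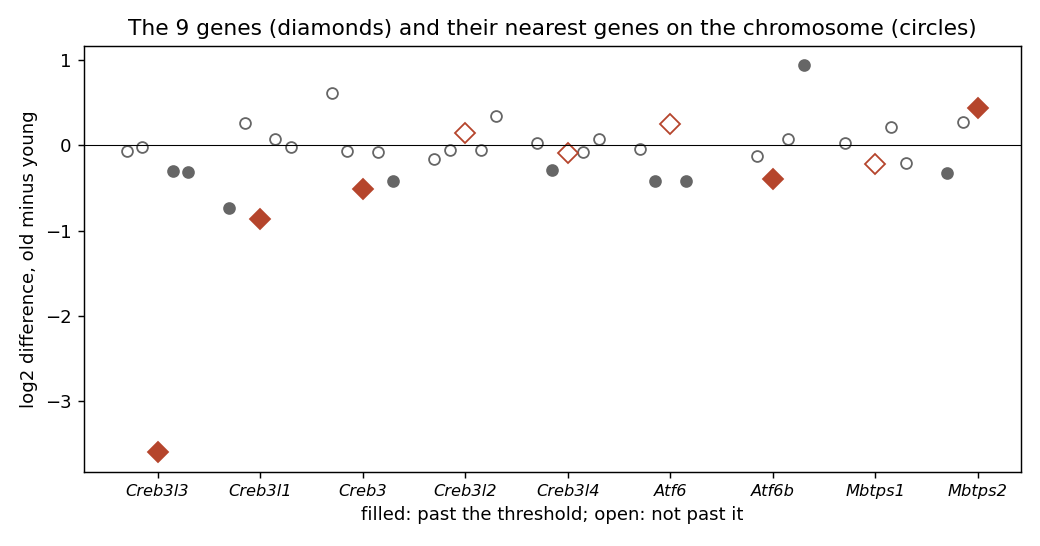
Log2 difference, old minus young (vertical axis), of the 9 genes (diamonds) and of up to 4 protein-coding neighbours of each (circles), filled where limma called them. Creb3l3 lies at -3.60 and its neighbours between -0.31 and -0.02.

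The genes with the pattern most like Creb3l3, by Pearson's r over the 8 arrays, were Ufsp2 (r = 0.997), Dap (r = 0.996), Tceal9 (r = 0.994) and Mmp16 (r = 0.993). Those most like Creb3l1 were Kdelr3 (r = 0.998), Gpx7 (r = 0.997), Obox2 (r = 0.996) and Slc38a10 (r = 0.995). These values describe mostly the step between both ages, which the arrays of a group share, and carry no test. Ufsp2, a protease of the Ufm1 modifier, averaged 7.92 in old and 8.51 in young cells. Gpx7, a peroxidase of the endoplasmic reticulum, read 9.30, 9.11, 9.21 and 8.99 in old replicates 1 to 4, against 10.14, 10.17, 10.24 and 10.15 in young replicates 1 to 4. For Creb3l1, Gpx7, Kdelr3, Obox2 and Slc38a10 alike, old replicate 4 was the lowest of the old arrays and old replicate 1 the highest. The last 4 were picked by their r with Creb3l1 over these same arrays. Their shared order thus follows in part from the choice and supports nothing further.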

How the data were processed

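Per the submitters' processing notes, the authors deposited RMA values made with the R package affy (versions not given in the sources used here), given as log2 levels per probe set. RMA removes background, gives all arrays a like distribution and combines probes by median polish, so differences near background come out too small. The table held 45141 probe sets over 8 arrays, with array medians between 5.19 and 5.34. By the array annotation 28898 probe sets had a single symbol, 551 had more and 15692 had none. Symbols were updated through a RefSeq table of GRCm38.p6 (28689 matched). Per the labels, 6 ng of RNA were amplified over 18 cycles.

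The 2 ages, read from the titles, were tested against each other by limma (version 3.58.1, R version 4.3.3; lmFit and eBayes, 2-sided, without covariates) over 17097 genes with a threshold of 0.05, and figures were drawn with matplotlib 3.10.9. The number of arrays limits the precision. The fit was also run on simulated data with independent noise and planted differences. Those data held no array-wide shift with age, so that run does not bear on the non-specific index. The members and lists were chosen with earlier results of these data known. Named genes were the 9 members, up to 4 called genes of each list (or the 2 of smallest p), the 4 most alike genes (SD at least 0.2), 2 neighbours on each side, the gate genes and selected markers. Alternatives changed the scaling, filter, probe set choice, variance model, weights, block and arrays. The covariate was planned under another name of its probe sets, and those used were named after seeing the data. Alternatives for single genes outside the 9 and for list counts were also added after seeing the data. Specimen numbers shared by both ages are not tied to collection days in the labels, so no block was used.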

Additional observations from a re-analysis of the deposited data

How the results depend on the processing

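Under 18 alternatives, Creb3l3 (-3.75 to -3.20) and Creb3l1 (-0.90 to -0.81) kept their direction and their call, and Creb3, Atf6b and Mbtps2 kept their direction. The non-specific index as a covariate, which follows age closely and widened the standard errors (0.06 without and 0.12 with it for Creb3), moved most counts. With it 2 members were lower and 0 higher by limma (3 and 1 at an unadjusted p under 0.05), against 4 and 1 without it, and 99 genes were lower and 69 higher over all genes. The difference of Atf6 turned to -0.05. With the mean over probe sets 3 members were higher, since Creb3l2 (0.23) and Atf6 (0.27) passed. With the most variable probe set Creb3l2 passed (0.31) and Mbtps2 did not (0.35, limma adjusted p = 0.117). Leaving out single arrays gave 4 to 5 members lower and 1 higher. Of 38 called genes from the 9 lists around the factors, the neighbours and the most alike genes, 5 kept their call under all alternatives that gave them a value. These 5 were Gpx7, Kdelr3, Mmp16, Obox2 and Slc38a10, all among the genes picked for their likeness to Creb3l3 or Creb3l1. The called cell type markers were not put through the alternatives. With the specimen number as a replicate block 4 members were lower and 1 higher, with 1268 genes lower and 1838 higher over all genes. Same-numbered old and young arrays deviated from their group means with correlations of 0.29, 0.05, -0.04 and 0.22. The best partner had the same number for old replicates 1 and 4, and another number for old replicates 2 and 3. So few values cannot settle whether the numbers are pairs. The numbers were not taken as pairs because the labels do not tie them to collection days. Creb3l4 gave no value where dim genes were left out. The 1 probe set of Creb3l3, Creb3l1, Creb3l4 and Atf6b each, and levels near background, limit what the arrays show.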

Other observations

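Signal peptide peptidases and other protein convertases were measured beside the 2 proteases. Of 9 measured, 2 fell and 7 did not pass, against 7.66% of all genes called lower. The median difference was -0.18 on the log2 scale. The count of lower ones was 4 after a further quantile normalization or with the most variable probe set, and 1 without old replicate 4 or young replicate 2. Sppl2b, an intramembrane protease, averaged 6.36 ± 0.23 in old and 6.79 ± 0.09 in young cells (SD, n = 4 each), and fell by 0.43 (limma adjusted p = 0.0214). Its call was lost without old replicate 4 or young replicate 2 or 4 (limma adjusted p up to 0.0604). Furin, which cuts proproteins in the Golgi, averaged 8.16 ± 0.08 in old and 8.51 ± 0.11 in young cells (SD, n = 4 each), and fell by 0.36 (limma adjusted p = 0.0077). When the non-specific index was a covariate 0 of the 9 were called by limma, and 1 was lower at an unadjusted p under 0.05. Sppl2b then differed by -0.11 and Furin by -0.53 (limma adjusted p = 0.89 and 0.104).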
